A study of Mus musculus with 6 samples.

Results

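The sympathoadrenal core transcription factors Phox2a, Hand1, Hand2, Gata2, Gata3, Isl1, Insm1 and Mycn were followed in N2A mouse neuroblastoma cells in which Pou3f3 had been targeted. The 8 genes were chosen by symbol. Of the 35556 rows of the array table, 21789 carried 1 gene symbol, covering 19938 distinct symbols, and each of the 8 factors was represented by a single row.

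N2A cells are a line grown from a mouse neuroblastoma, a tumour of the sympathetic lineage. Knockdown cells had been transiently transfected, using FuGENE 6, with a vector expressing a short hairpin RNA (shRNA) against Pou3f3, and control cells with a vector whose shRNA has no intended target. Total RNA was taken 2.5 days after transfection and hybridised to Affymetrix Mouse Gene 1.0 ST arrays, 3 per group, described as biological replicates. All 6 cultures came from the same line, so the p-values reflect the spread among such transfections only, and transfected and untransfected cells of a well were measured together. In bulk RNA, fewer cells of a type and less RNA per cell cannot be told apart.

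The sympathoadrenal lineage arises from neural crest cells that settle beside the dorsal aorta, where bone morphogenetic protein signals switch on a set of transcription factors that then maintain one another. Phox2a, Hand2, Gata2 and Gata3 are among them, and together they turn on the enzymes of noradrenaline synthesis, Th and Dbh. In neuroblastoma the same factors occupy large enhancers of their own genes and of each other and hold the tumour cell in its adrenergic state, and MYCN is amplified in a share of human tumours.

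Promoter sequence was available from RefSeq (assembly GRCm38.p6) for 6 of the 8 factors, in 7 windows, and the 250 bases before the start site were searched on both strands. The class III POU proteins, to which Pou3f3 belongs, recognise the octamer ATGCAAAT. It was in none of the 7 windows and in 1.6% of all 32851 windows of the same length. With the letter C free (ATGNAAAT, which includes the octamer) it was found in 5.03% of all windows and, among the factors, in that of Mycn alone, as ATGGAAAT starting 146 bases before the start site. The E box CANNTG, read by basic helix-loop-helix proteins such as Hand1 and Hand2, was in 66.2% of all windows and in those of Hand2, Isl1 and Mycn. Its form CACGTG, bound by Mycn with Max, was in 6.02% of windows and in none of the factors. GATAA, the core read by GATA proteins, was in 22.6% of windows and in those of Phox2a, Hand2 and Isl1, and the homeodomain core TAATTA was in 4.84% and in that of Hand2. A match describes letters only and does not show binding, and a window without a match says nothing about a factor. Shown are the windows of Gata3 and Phox2a, whose levels differed most between the groups, and of Mycn, which held the octamer-like match. Each is written 5′ to 3′ and ends at the base before the start site, and capitals mark matches to any of the 6 motifs.
Gata3 (chr2:9878601-9878850, minus strand): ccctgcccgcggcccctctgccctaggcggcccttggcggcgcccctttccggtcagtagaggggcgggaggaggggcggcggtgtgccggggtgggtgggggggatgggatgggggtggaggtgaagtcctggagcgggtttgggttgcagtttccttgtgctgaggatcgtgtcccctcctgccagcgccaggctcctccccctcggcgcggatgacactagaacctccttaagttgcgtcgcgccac
Phox2a (chr7:101818063-101818312, plus strand): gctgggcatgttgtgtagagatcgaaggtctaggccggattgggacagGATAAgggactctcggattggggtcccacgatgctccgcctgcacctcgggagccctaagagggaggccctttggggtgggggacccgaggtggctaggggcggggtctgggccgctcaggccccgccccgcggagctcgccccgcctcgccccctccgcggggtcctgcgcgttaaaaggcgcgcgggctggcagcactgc
Mycn (chr12:12941837-12942086, minus strand): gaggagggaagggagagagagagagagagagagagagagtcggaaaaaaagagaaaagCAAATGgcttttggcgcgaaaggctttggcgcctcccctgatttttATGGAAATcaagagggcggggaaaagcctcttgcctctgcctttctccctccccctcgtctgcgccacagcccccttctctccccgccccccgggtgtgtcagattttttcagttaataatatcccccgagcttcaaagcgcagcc

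All levels are deposited log2 array values, and all differences are knockdown minus control on the log2 scale. Levels of different genes come from different probes and were not read as relative amounts of transcript. In places below they were subtracted, summed or used to group rows, to set knockdown beside control. A row was called at a limma adjusted p under 0.1 (Benjamini-Hochberg over the 21789 named rows) and a fold of at least 1.3, a log2 difference of 0.38. Array medians ran from 7.90 to 7.97 in knockdown cells and from 7.97 to 8.01 in control cells. Arrays correlated with one another at 0.994 to 0.999. Pou3f3, the target, had values of 8.20, 8.09 and 8.35 in knockdown cells and 8.37, 8.30 and 8.47 in control cells. Its groups overlapped, and the difference of -0.16 (95% confidence interval -0.35 to 0.02, limma adjusted p = 0.303, or 0.0880 with replicate number entered as a block) is a change of -10.8%. The study reports a larger reduction of the Pou3f3 transcript, measured by qRT-PCR. All 12 sympathetic and neuronal markers were measured, and 1 of them, Dbh, was called. None of the measured markers of 7 other cell types (Schwann and glial, fibroblast, macrophage, endothelial, cardiac muscle, erythroid, adrenal cortex) was called. These calls compare the groups and do not show which cell types were present. Whether a marker was above background was not assessed, so the labelled cell type was not checked.

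None of the 8 factors was called, where 1.99% of the named rows were. Gata3 alone had an adjusted p under 0.1 at any fold, a mark reached by 4.45% of rows. With replicate number entered as a block there were 2, Gata3 and Phox2a, where 23.0% of rows reached it. Gata3 was also the only factor whose groups did not overlap, with knockdown below control. Such a separation was seen in 15.1% of rows in that direction and in 26.0% in either direction. The median difference over the 8 factors was 0.01, against -0.03 over all named rows, and the median size of the difference was 0.06, against 0.10. Of the factors, 5 lay above 0 and 3 below, while 42.5% of all named rows lay above 0.

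**Figure D1:**
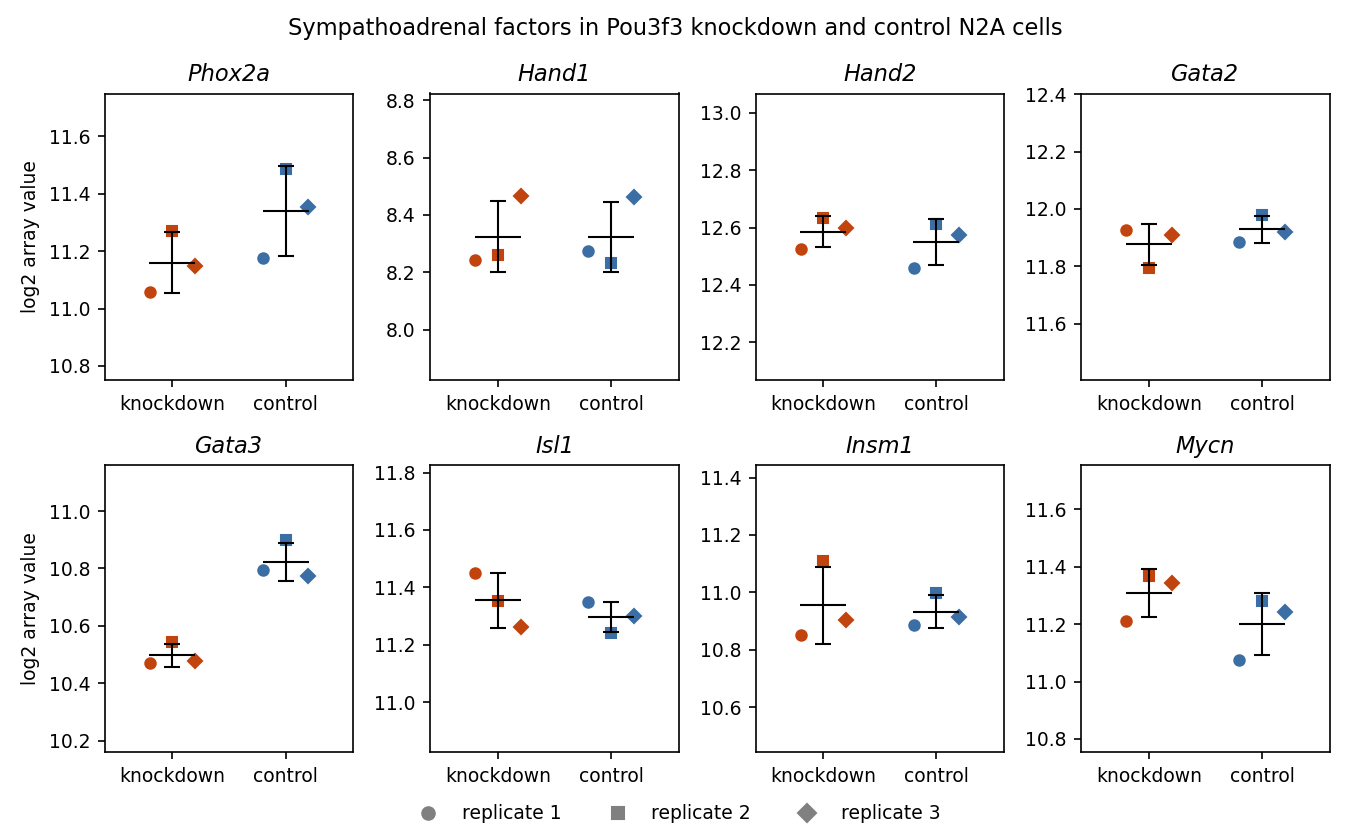
Log2 values per array (vertical axes, 1 log2 unit high in every panel) of the 8 factors in knockdown cells (left) and control cells (right). Points are arrays, with the marker shape giving the replicate number, and bars are means ± SD (n = 3). Gata3 is the only factor whose groups are apart, and its 3 knockdown arrays lie between 10.47 and 10.54.

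Gata3 and Gata2 are zinc-finger proteins that bind GATA motifs. In the mouse, Gata3 is needed for sympathetic neurons to make noradrenaline, and embryos without it die for lack of it. Gata3 had values of 10.47, 10.54 and 10.48 in knockdown replicates 1 to 3 and of 10.80, 10.90 and 10.77 in control replicates 1 to 3. Every knockdown array lay below every control array. The means were 10.50 ± 0.04 in knockdown cells and 10.82 ± 0.07 in control cells (SD, n = 3 each). The difference was -0.33 ± 0.07 (SE, 95% confidence interval -0.47 to -0.18, limma adjusted p = 0.0484). As a level this is a change of -20.2% (95% confidence interval -28.0% to -11.6%), or 1.25-fold lower, which is below the fold cut-off, and the interval reaches past it. An exact two-sided permutation test gave 0.1, the smallest p that 3 arrays against 3 allow. Taken within replicate numbers 1 to 3 it was -0.33, -0.35 and -0.30, and blocking on that number gave a limma adjusted p of 0.00849. A difference at least as large as that of Gata3 was found in 4.30% of named rows. The 2179 rows of a similar level (means from 10.26 to 10.97) had a median difference of 0.06, of the opposite sign. When single arrays were left out the adjusted p stayed under 0.1 only without control replicate 1 (0.0622). It was 0.107, 0.129 and 0.109 without knockdown replicate 1, 2 or 3, and 0.206 and 0.123 without control replicate 2 or 3. With the variance filter of the study's methods it was 0.359 over all rows, named or not, and 0.0899 over named rows, and without a filter it was 0.165 over all rows.

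Gata2, which acts beside Gata3 in sympathetic precursors and is better known from blood stem cells, had values of 11.93, 11.79 and 11.91 in knockdown cells and 11.88, 11.98 and 11.92 in control cells. The groups overlapped, with the lowest value in knockdown replicate 2. The difference was -0.05 (95% confidence interval -0.20 to 0.10, limma adjusted p = 0.684). Within each array, the value of Gata3 minus that of Gata2 was lower in the 3 knockdown arrays than in any control array, and the mean of this quantity differed by -0.27 between the groups. That pair was set side by side after their values had been seen, so no test is given.

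Phox2a is a paired-like homeodomain protein that binds the Dbh promoter and is also required for the locus coeruleus of the brain stem. It had values of 11.06, 11.27 and 11.15 in knockdown cells and 11.18, 11.49 and 11.36 in control cells. The groups overlapped because control replicate 1 lay below knockdown replicate 2. Each knockdown array was below the control array of its own number, by -0.12, -0.22 and -0.21 for numbers 1 to 3. The means were 11.16 ± 0.11 in knockdown cells and 11.34 ± 0.16 in control cells (SD, n = 3 each), a difference of -0.18 ± 0.09 (SE, 95% confidence interval -0.39 to 0.03, limma adjusted p = 0.307). With that number as a block the interval was -0.31 to -0.05 and the limma adjusted p was 0.0695. The lower end of the first interval passes 1.3-fold, so a decrease of that size in Phox2a lies within it.

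Hand2 and Hand1 are basic helix-loop-helix proteins that bind E boxes as dimers with E proteins. Hand2 is needed for the proliferation of sympathetic precursors and for their noradrenergic genes, and Hand1 is expressed beside it in sympathetic ganglia. Hand2 had values of 12.53, 12.63 and 12.60 in knockdown cells and 12.46, 12.61 and 12.57 in control cells, and the groups overlapped. The difference was 0.04 (95% confidence interval -0.12 to 0.19, limma adjusted p = 0.790). Hand1 had values of 8.24, 8.26 and 8.47 in knockdown cells and 8.27, 8.23 and 8.46 in control cells. In both groups it was highest in replicate 3, as were 14% of named rows. The difference was 0.00 (95% confidence interval -0.20 to 0.20, limma adjusted p = 0.995), the smallest of the 8.

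Isl1, a LIM-homeodomain protein that sympathetic neurons need for survival and maturation, had values of 11.45, 11.35 and 11.26 in knockdown cells and 11.35, 11.24 and 11.30 in control cells. The groups overlapped, and the difference was 0.06 (95% confidence interval -0.10 to 0.22, limma adjusted p = 0.671). Insm1 is a zinc-finger protein of neuroendocrine cells, needed in the mouse for chromaffin cells and sympathetic neurons to mature. It had values of 10.85, 11.11 and 10.90 in knockdown cells and 10.89, 11.00 and 10.91 in control cells. Both the lowest and the highest value were in knockdown cells. The difference was 0.02 (95% confidence interval -0.16 to 0.21, limma adjusted p = 0.898).

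Mycn is a basic helix-loop-helix leucine zipper protein that dimerises with Max and drives growth and proliferation. It had values of 11.21, 11.37 and 11.34 in knockdown cells and 11.08, 11.28 and 11.24 in control cells. The groups overlapped, although each knockdown array was above the control array of the same number, by 0.14, 0.09 and 0.10. The difference was 0.11 (95% confidence interval -0.07 to 0.29, limma adjusted p = 0.465, or 0.227 with the block). The block narrowed the interval to -0.02 to 0.24.

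**Figure D2:**
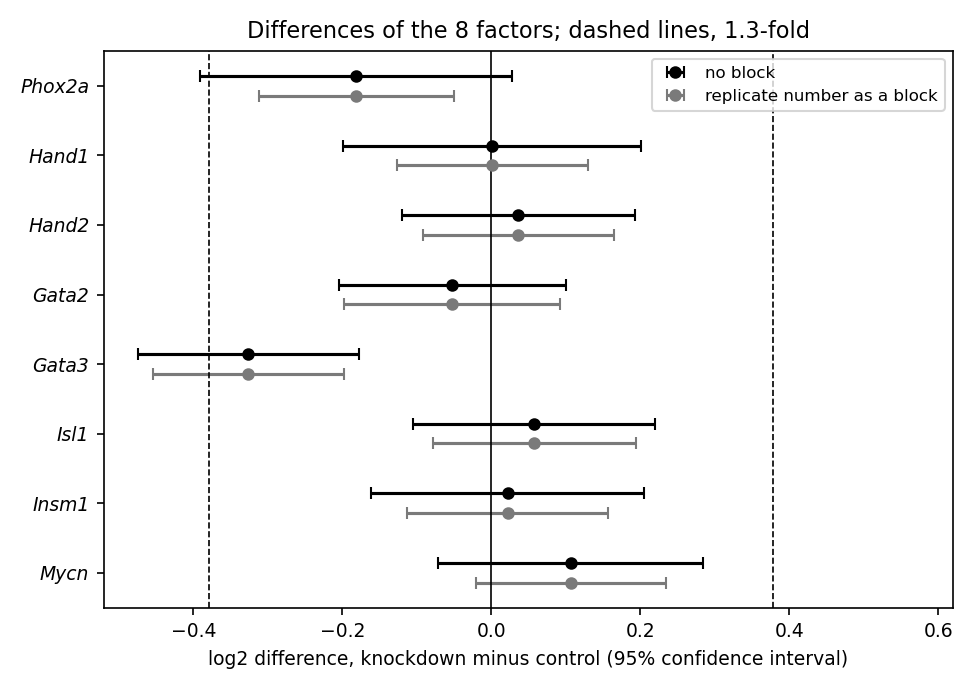
Log2 difference, knockdown minus control, of each factor (points) with its 95% confidence interval (bars), without a block (black) and with replicate number as a block (grey). Dashed lines mark a 1.3-fold difference in either direction. The interval of Gata3, -0.47 to -0.18, is the only unblocked one that does not include 0.

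For 6 factors, Hand1, Hand2, Gata2, Isl1, Insm1 and Mycn, both bounds of the interval lay within 1.3-fold, as they did in 77.7% of named rows. For these factors a change of 1.3-fold in either direction lay outside the interval, while some smaller changes lay inside it. The median SD within a group was 0.09 for the factors and 0.09 for all named rows.

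Several of the factors varied with the replicate number in the same way in both groups. Phox2a, Hand2, Insm1 and Mycn were each lowest in replicate 1 of both groups, a pattern found in 25% of named rows. Phox2a, Hand2, Gata3, Insm1 and Mycn were each highest in replicate 2 of both groups, as were 14.0% of named rows. Isl1 was the reverse of the first set, with its highest value in replicate 1 of both groups, as in 18.2% of named rows. For 4 factors, Phox2a, Gata3, Hand2 and Mycn, the 3 differences between same-numbered arrays shared a sign, which held for 52.9% of named rows.

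**Figure D3:**
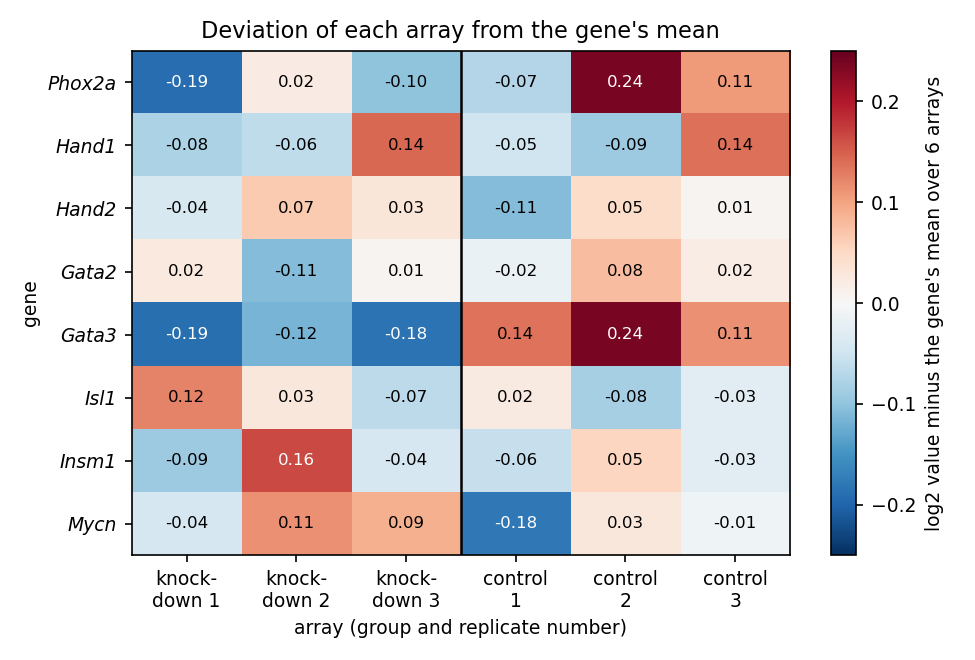
Deviation of each array from the mean of the gene over the 6 arrays (log2, colour and printed value), with knockdown arrays left of the line and control arrays right of it. In the Gata3 row all 3 knockdown arrays are below 0 and all 3 control arrays above it, while Phox2a, Hand2, Insm1 and Mycn are below 0 in replicate 1 of both groups.

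The symbols whose pattern over the 6 arrays was most like that of Gata3 were Chrdl2, a secreted antagonist of bone morphogenetic proteins (Pearson r 0.998), Nynrin (0.998) and Mitf, the transcription factor of melanocytes, another neural crest derivative (0.997). These correlations are over 6 arrays of 2 groups, out of 19938 symbols, and 190 other symbols had an r of at least 0.95. The differences were -0.24 for Chrdl2, -0.35 for Nynrin and -0.45 for Mitf (limma adjusted p = 0.0910, 0.0438 and 0.0192). Of these 3 only Mitf was past the fold cut-off, and so it fell. The 3 were picked for their likeness to Gata3, so their lower values in knockdown cells follow from the choice.

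Among genes that the sympathoadrenal factors are known to regulate or that mark the lineage, 2 of the 20 measured were called lower and 0 higher. Over all symbols, with 1 row each, 0.657% were called lower and 1.35% higher. This list and those below were written with earlier results of these data known. Their counts beside the shares over all symbols are therefore a description, not a test. Dbh, which converts dopamine to noradrenaline, had values of 11.07, 11.36 and 11.25 in knockdown cells and 12.21, 12.64 and 12.32 in control cells. Its groups did not overlap, and it fell by 1.17 (95% confidence interval -1.43 to -0.90, limma adjusted p = 0.00471). Npy, the peptide co-released with noradrenaline, had values of 9.52, 9.25 and 9.52 in knockdown cells and 10.22, 9.97 and 10.25 in control cells. It too had no overlap, and it fell by 0.72 (95% confidence interval -0.95 to -0.49, limma adjusted p = 0.0169). Npy lost its call where unnamed rows were tested too, with the study's variance filter (limma adjusted p = 0.201) or without it (0.118). The call was kept with that filter on named rows (6.4e-05). That setting left the difference unchanged and also lowered the adjusted p of Dbh, from 0.00471 to 1.6e-09. At any fold, 4 of the 20 genes were lower at an adjusted p under 0.1 and 0 were higher, against 1.80% lower and 2.76% higher over all symbols. The other 2 were the granins Chgb and Chga, proteins of the secretory granule, with differences of -0.38 and -0.35 (limma adjusted p = 0.0456 and 0.0628). They are named because they complete this count, after their values were seen. With replicate number as a block 7 were lower and 1, Ddc at 0.23 (limma adjusted p = 0.0330), was higher, where 10.6% of symbols were lower and 12.2% higher.

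When replicate number was a block, 3 of these genes were called lower, against 0.722% of symbols. The added gene was Th, the enzyme of the first step of catecholamine synthesis, at -0.38 (limma adjusted p = 0.133 without the block and 0.0420 with it). The other genes spread from -0.24 to 0.23, and the list had 6 genes above 0 and 14 below with a median of -0.12, against -0.03 over all symbols. The summed level of the 12 sympathetic and neuronal markers, 9 of which are also in this list, was 16.21 to 16.25 in knockdown cells and 16.43 to 16.46 in control cells. Summed levels add unlogged values, so the markers with the highest values weigh most. Differences of single markers ran from -1.17 for Dbh to 0.08 for Prph, named after its value was seen, so the sum does not stand for each marker. Cardiac muscle also uses Hand1, Hand2 and other GATA factors. The summed level of its 6 markers was 11.09 to 11.23 in knockdown cells and 11.23 to 11.24 in control cells. All 3 knockdown arrays were the lower, but the highest of them, at 11.227, nearly met the lowest control array, at 11.230. For the Schwann and glial, fibroblast, macrophage, endothelial, erythroid and adrenal cortex markers the summed levels of the groups overlapped. The part of these marker levels in the result for Gata3 was not tested.

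Of the 17 other factors of the adrenergic network, 0 were called, with 7 above 0, 10 below and a median of -0.04. The smallest p was that of Sox11, a factor of neuroblast proliferation. Sox11 had values of 10.29, 9.97 and 9.91 in knockdown cells and 9.86, 9.49 and 9.59 in control cells, which did not overlap. The difference was 0.41 (95% confidence interval 0.14 to 0.68, limma adjusted p = 0.127), and with the block it was called higher (adjusted p = 0.00446), as were 1.78% of symbols. Sox11 and 1 other factor were higher at any fold with the block, and 0 were lower, where 12.2% of symbols were higher and 10.6% lower.

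The 20 factors of the mesenchymal state, the alternative state of neuroblastoma cells, had 0 calls, 8 genes above 0, 12 below and a median of -0.06. At any fold, 2 had an adjusted p under 0.1, both higher, where 2.76% of symbols were higher and 1.80% lower. Wwtr1, a co-activator of the Hippo pathway, had values of 8.95, 9.04 and 8.99 in knockdown cells and 8.62, 8.64 and 8.78 in control cells, with no overlap and a difference of 0.31 (limma adjusted p = 0.0665). Leaving out any 1 array gave an adjusted p of 0.102 to 0.237 for Wwtr1. The other was the receptor Notch2, at 0.24 (limma adjusted p = 0.0827), named after its value was seen. With replicate number as a block 3 of the list were higher and 2 lower at any fold, against 12.2% and 10.6% of symbols. The 3 higher were Wwtr1, Notch2 and Six4, the last at 0.20 with groups that did not overlap (limma adjusted p = 0.146, or 0.0462 with the block). The 2 lower were Twist1 at -0.19 and Yap1 at -0.18, both with groups that overlapped. For Twist1 and Yap1 the limma adjusted p was 0.254 and 0.295 without the block and 0.0654 and 0.0782 with it. Six4, Twist1 and Yap1 were named after their values were seen.

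The 16 paralogues, genes of the same families as the factors, had 0 calls, 5 genes above 0, 11 below and a median of -0.09. Several lay at means from 7.82 to 8.60, a range whose 2179 rows had a median difference of -0.08. The smallest p was that of Insm2, at -0.19 (limma adjusted p = 0.152, or 0.0647 with the block). With the block 2 paralogues were lower at any fold and 0 higher, where 10.6% of symbols were lower and 12.2% higher. Of the 26 partners, which dimerise with the factors or alter their activity, 0 were called, with 12 above 0, 14 below and a median of -0.04. The smallest p was that of Zfpm2, a cofactor of GATA proteins in the heart and gonad, at -0.25 (limma adjusted p = 0.120, or 0.0301 with the block). With the block 3 partners were higher and 3 lower at any fold, where 12.2% of symbols were higher and 10.6% lower. With the block 1 partner was called lower, as were 0.722% of symbols. It was Id2, which binds E proteins and keeps them from DNA, at -0.48 (limma adjusted p = 0.20 without the block and 0.00746 with it), named after its value was seen. Id2 had values of 10.85, 11.19 and 10.88 in knockdown cells and 11.17, 11.92 and 11.26 in control cells, and its groups overlapped.

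The 20 genes known as targets of Mycn, mostly of ribosome production and nucleotide metabolism, had 0 calls, 15 above 0, 5 below and a median of 0.04. The smallest p was that of Odc1, the first enzyme of polyamine synthesis, which had values of 11.99, 12.24 and 12.05 in knockdown cells and 11.81, 11.88 and 11.79 in control cells. Its groups did not overlap, and its difference of 0.27 had a limma adjusted p of 0.126, or 0.0228 with the block. With the block 3 of the list were higher at any fold and 0 lower, where 12.2% of symbols were higher and 10.6% lower.

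**Figure D4:**
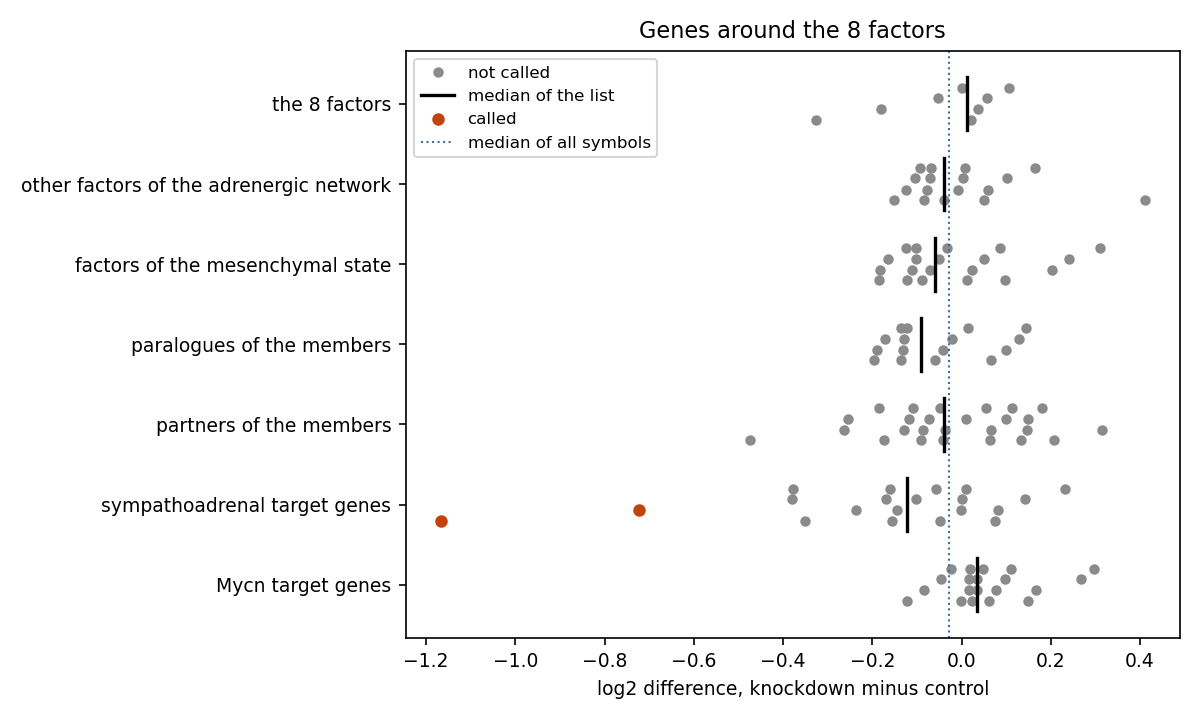
Log2 difference, knockdown minus control (horizontal axis), of the 8 factors and of each list of genes around them (rows). Points are genes, orange where called and grey where not, black bars are the median of each list and the dotted line is the median of all symbols, -0.03. Dbh at -1.17 and Npy at -0.72 are the 2 called genes.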

How the data were processed

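Transcript levels were measured on 3 knockdown and 3 control arrays of N2A cells. Per the study's methods the deposited values are log2 intensities that the authors obtained by RMA background correction, quantile normalisation and summary of the probes of a gene. They ran from 3.16 to 14.89. RMA and limma stand in the submitters' processing notes without versions. Quantile normalisation hides a change shared by most genes, no detection call against background was used here, and precision is limited by having 3 arrays a group. For the array design, a genome build is not given in the sources used.

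Names came from the annotation of the platform. Of 35556 rows, 21789 had 1 symbol, 1621 had several and 12146 were not listed, and symbols were updated by Entrez identifier for 21698. All named rows were fitted with lmFit and eBayes (limma 3.58.1 in R 4.3.3), without a block, after a test on simulated data. The study's variance cut-off of 0.5, read as the median, is an alternative because it removed 6 of the 8 factors. In addition, an earlier analysis of these data had found more false calls with it in simulated arrays. Of a symbol with several rows, the row with the highest mean was used. Confidence intervals are from the same fit, and permutation tests are exact and two-sided.

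Deviations from the group means of arrays with the same replicate number correlated at 0.64, 0.31 and 0.29 for numbers 1 to 3, each above 0.1. Between unlike numbers, knockdown 3 with control 2 gave 0.25 and knockdown 2 with control 3 gave 0.22. Unlike pairs that held a number 1 array gave -0.48 to -0.37. Number 1 therefore stood apart, while a pairing of numbers 2 and 3 was not shown, and the labels give only the number. Blocked values stand beside the factors and named genes whose call they change and beside the counts of the lists. Alternatives were other row filters, the block, centring on the array median, cyclic loess, eBayes with trend and robust, and leaving out each array.

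The genes named are the 8 factors, Pou3f3, the called genes of each list (or the gene with the smallest p) and the 3 symbols most correlated with Gata3. Others are marked where they appear. The factors and lists were chosen with earlier results of these data known. Some further genes of the lists are not reported here.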

Additional observations from a re-analysis of the deposited data

How the results depend on the processing

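None of the 8 factors was called under any alternative that kept the fold cut-off. Without it 1 was, Gata3. The number at an adjusted p under 0.1 was 2 with the replicate block. It was 0 on all rows, with the study's variance filter or without a filter, and 0 to 1 when arrays were left out. Leaving out any of 5 of the 6 single arrays took the adjusted p of Gata3 past 0.1. Its difference stayed between -0.35 and -0.29 whichever single array was left out. Gata3 itself ranged from -0.37 to -0.28, with adjusted p from 0.00849 to 0.359, and Phox2a from -0.26 to -0.11 (0.0695 to 0.632). Small differences changed sign. Insm1 was -0.0230 with cyclic loess, and when arrays were left out it ranged from -0.0547 to 0.0728, Hand1 from -0.0702 to 0.0710 and Hand2 from -0.00859 to 0.0691. Calls over all rows depended far more on the rows tested. The 433 calls became 12 with the study's variance filter on all rows, named or not (2 higher, 10 lower), 28 on all rows without a filter (10 higher, 18 lower) and 542 with the filter on named rows (378 higher, 164 lower), and 147 to 611 when arrays were left out (67 to 392 higher, 80 to 219 lower), fewest without knockdown replicate 2 or control replicate 2 (161). They were 544 with the block and 596 with centring on array medians, where 491 were higher. The share of calls that were higher was 65.6%, against 16.7% with the study's filter on all rows (of 12 calls), 35.7% on all rows, 69.7% with the filter on named rows, 82.4% with centring, 54.6% with cyclic loess, and 45.6% and 48.4% without knockdown or control replicate 2. No scaling moved the median of all named rows by more than 0.1. Leaving out replicate 1 of both groups, chosen after seeing the data, left Gata3 at -0.33 (adjusted p = 0.0835). Each factor had 1 row, so a mean over rows gave no separate value. The cause of these shifts was not tested. Among genes named from the lists, Npy lost its call on all rows with the study's filter (adjusted p = 0.201) and without it (0.118) but not with the filter on named rows (6.4e-05). Sox11 passed with that last setting (0.0384), with the block (0.00446), with median centring (0.0748), and without control replicate 1 (0.0550) or replicate 1 of both groups (0.0518). Groups of 3 arrays are too small to single out an outlying array.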
